A study of Mus musculus with 16 samples.

Results

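The cell division genes are 38 of the 55385 genes in the count table, chosen by symbol as a standard set of the replication and mitosis machinery, and all 38 were found there. They were followed in male C57BL/6 wild-type mice that were either fed or kept through 24 h of fasting, in 8 tissues: spleen, lung, kidney, heart, liver, muscle and both white and brown adipose. The mice arrived at 12 weeks of age, and tissue from the 3 mice of a treatment was pooled before RNA was extracted, so each tissue has a single fed and a single fasting short-read RNA-Seq library (16 in all) and no biological replicate. All 8 tissues come from the same 2 pools of mice. No allele or agent separates the groups: they differ by the 24 h without food, and the pools stand for wild-type males of 1 strain only.

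A dividing cell copies its genome in S phase and parts the copies in mitosis. The MCM proteins are loaded at replication origins by Cdc6 and Cdt1 and open the DNA, Pcna clamps the polymerases, and Rrm1, Rrm2 and Tyms supply deoxynucleotides. Cyclin E (Ccne1, Ccne2) and the transcription factor E2f1 drive entry into S phase. Cdk1 with cyclins A and B then drives mitosis, in which Plk1, the Aurora kinases, the Bub1 checkpoint proteins, kinesins and kinetochore proteins build and watch the spindle until Cdc20 and Ube2c, acting with the anaphase-promoting complex, let the chromosomes part. Many of these transcripts are made mainly in cycling cells, so a tissue's level of them is commonly read as a sign of how much of it is dividing. Spleen keeps a large dividing population of blood cells, whereas cardiomyocytes and muscle fibres of the adult are largely outside the cycle.

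Short promoter elements are textbook features of this set. The cell cycle homology region (CHR) is bound by the DREAM and MYB-MuvB complexes, and the E2F site is bound by E2F factors. A CCAAT box, bound by NF-Y, often lies beside a CHR. The promoters shown here are the 3 of highest mean level per length that hold a CHR word and the 2 of highest level that hold an E2F word and no CHR word. They are RefSeq windows of 300 bases, 250 before and 50 after the start of the gene, on GRCm38.p6: Mcm7 at chr5:138171834-138172133, Mki67 at chr7:135716330-135716629, Top2a at chr11:99024140-99024439, Mcm6 at chr1:128359656-128359955 and Mcm3 at chr1:20820263-20820562, all on the minus strand and written 5′ to 3′ along the gene. Capitals mark CCAAT boxes (CCAAT, or ATTGG on the other strand) in all 5, CHR words (TTTGAA or TTCGAA, on either strand) in the first 3 and E2F words (TTTCCCGC, TTTCGCGC, TTTGGCGC or TTTGCCGC, on either strand) in the last 2.
Mcm7: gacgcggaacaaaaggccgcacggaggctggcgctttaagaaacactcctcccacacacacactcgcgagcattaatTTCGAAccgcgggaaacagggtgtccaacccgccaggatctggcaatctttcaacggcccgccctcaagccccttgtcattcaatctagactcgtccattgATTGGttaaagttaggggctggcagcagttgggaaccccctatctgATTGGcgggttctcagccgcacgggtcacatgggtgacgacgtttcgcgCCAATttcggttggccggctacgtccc
Mki67: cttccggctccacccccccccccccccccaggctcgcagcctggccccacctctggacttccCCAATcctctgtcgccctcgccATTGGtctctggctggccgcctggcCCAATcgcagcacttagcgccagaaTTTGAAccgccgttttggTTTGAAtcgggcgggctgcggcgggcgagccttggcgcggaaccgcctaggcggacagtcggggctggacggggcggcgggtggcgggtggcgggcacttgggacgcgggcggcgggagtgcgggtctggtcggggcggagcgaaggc
Top2a: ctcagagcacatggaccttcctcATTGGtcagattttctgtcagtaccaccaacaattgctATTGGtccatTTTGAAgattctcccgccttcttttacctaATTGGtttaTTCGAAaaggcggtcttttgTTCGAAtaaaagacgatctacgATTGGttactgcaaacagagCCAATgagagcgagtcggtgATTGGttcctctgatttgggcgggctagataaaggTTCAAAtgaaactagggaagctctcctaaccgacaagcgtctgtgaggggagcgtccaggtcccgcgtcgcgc
Mcm6: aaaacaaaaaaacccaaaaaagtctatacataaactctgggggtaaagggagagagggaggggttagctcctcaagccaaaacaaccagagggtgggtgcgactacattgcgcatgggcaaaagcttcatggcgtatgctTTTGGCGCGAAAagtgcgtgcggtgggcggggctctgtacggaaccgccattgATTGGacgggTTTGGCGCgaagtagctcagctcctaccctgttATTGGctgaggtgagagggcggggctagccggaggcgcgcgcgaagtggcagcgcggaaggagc
Mcm3: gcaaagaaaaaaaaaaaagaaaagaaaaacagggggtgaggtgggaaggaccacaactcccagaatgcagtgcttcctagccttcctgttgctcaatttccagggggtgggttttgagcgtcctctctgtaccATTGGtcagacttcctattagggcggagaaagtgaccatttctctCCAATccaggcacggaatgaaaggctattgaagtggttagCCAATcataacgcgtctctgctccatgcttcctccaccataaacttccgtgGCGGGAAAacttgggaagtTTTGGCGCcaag

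The capitals show 1 CHR word in the Mcm7 window, 2 in that of Mki67, the antigen used to count cycling cells, and 4 in that of Top2a, the topoisomerase that untangles sister chromosomes. The Mcm6 window holds 3 E2F words, of which a pair overlap and run together as 1 block of capitals, and the Mcm3 window holds 2. Of the 38 genes, 32 had a window among those counted. Windows of chromosome 18 and windows not 300 bases long were left out. The windows of Ccne2, Tpx2, Aurkb, Ccna2, Mcm4 and Kif20a were not used here. A CHR word was found in 17 of the 32 genes, an E2F word in 7 and a CCAAT box in 25. Counted over windows, of which some genes have more than 1, the shares were 52.9% for CHR, 20.6% for E2F and 79.4% for CCAAT in the set. They were 19.2%, 2.26% and 37.4% of all 32851 windows counted. Each of the 17 genes with a CHR word also held a CCAAT box, a pair found in 7.52% of all windows. The elements were split between the arms of the set: 15 of 19 mitosis genes held a CHR word and 1 an E2F word, whereas 2 of 13 replication genes held a CHR word and 6 an E2F word. Words of different elements may overlap, a match is a run of letters and not a shown binding site, and 10 of the 32 genes held neither a CHR nor an E2F word in this window.

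**Figure D1:**
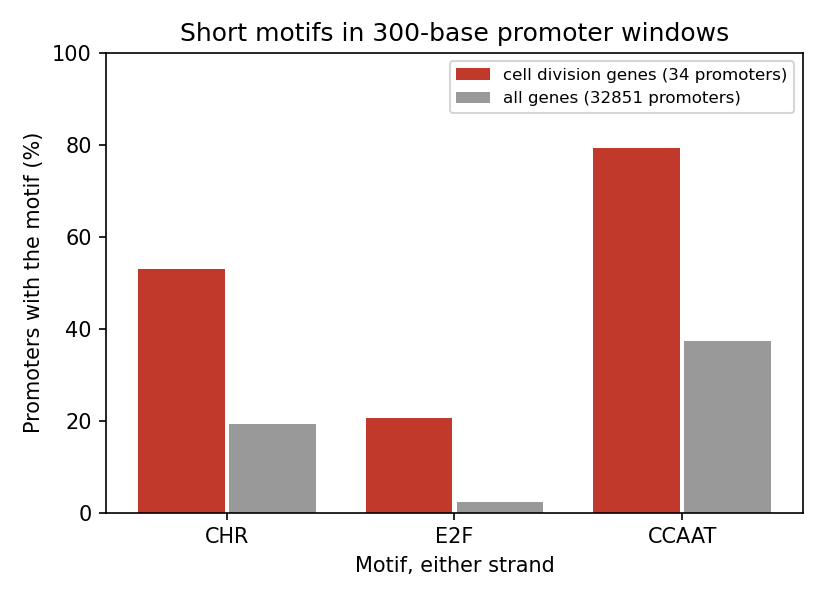
The bars give the percentage of 300-base promoter windows that hold a CHR, E2F or CCAAT word on either strand, for 34 windows of the cell division genes in red and for all 32851 windows counted in grey. Each element was found in a larger share of the red windows, from 20.6% against 2.26% for E2F words to 79.4% against 37.4% for CCAAT boxes.

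Levels are given in CPM, the counts of a gene as a share of all gene counts of its library, scaled to a common total. Library totals ran from 14245178 to 36069968 counts. The labelled tissues carried their own defining markers: liver, muscle, heart, kidney tubule, lung epithelium, adipocyte and brown adipocyte lists each had their highest sum in the tissue they stand for, and the B cell list in spleen. Counts at or under 3 were taken as the floor of detection, and Bub1, a checkpoint kinase, was at or under it in 5 of the 16 libraries, more than any other gene of the set. Intervals below cover counting error only, since no molecular identifiers were counted and no replicate shows the spread between animals.

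The first question the design poses is where in the body these genes are used. Spleen stood highest for 35 of the 38 genes, and for 33 of them both spleen libraries lay above all 14 others. How many of all genes stand so was not counted. The sum over the set was 1252 CPM in fed and 1195 CPM in fasting spleen. Lung followed at 501 CPM fed and 329 CPM fasting. Fed lung also held thymocyte markers, at 127 CPM beside 8.37 CPM in fasting lung, and the fasting library alone still stood above both libraries of every tissue but spleen. The sums in white adipose were 275 and 259 CPM, in kidney 221 and 204 CPM, in heart 207 and 155 CPM and in brown adipose 163 and 145 CPM. Muscle (114 and 99.4 CPM) and liver (113 and 75.1 CPM) were the lowest, and their ranges overlap. Muscle was the lowest tissue for 28 genes, liver for 9 and brown adipose for 1, and lung was second for 29. A gene's mean in spleen was 11.3 times the median of the other tissues for the median gene of the set, from 1.97 times for Ccne2, cyclin E2, to 32.1 times for Aurkb, the kinase of the chromosomal passenger complex.

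**Figure D2:**
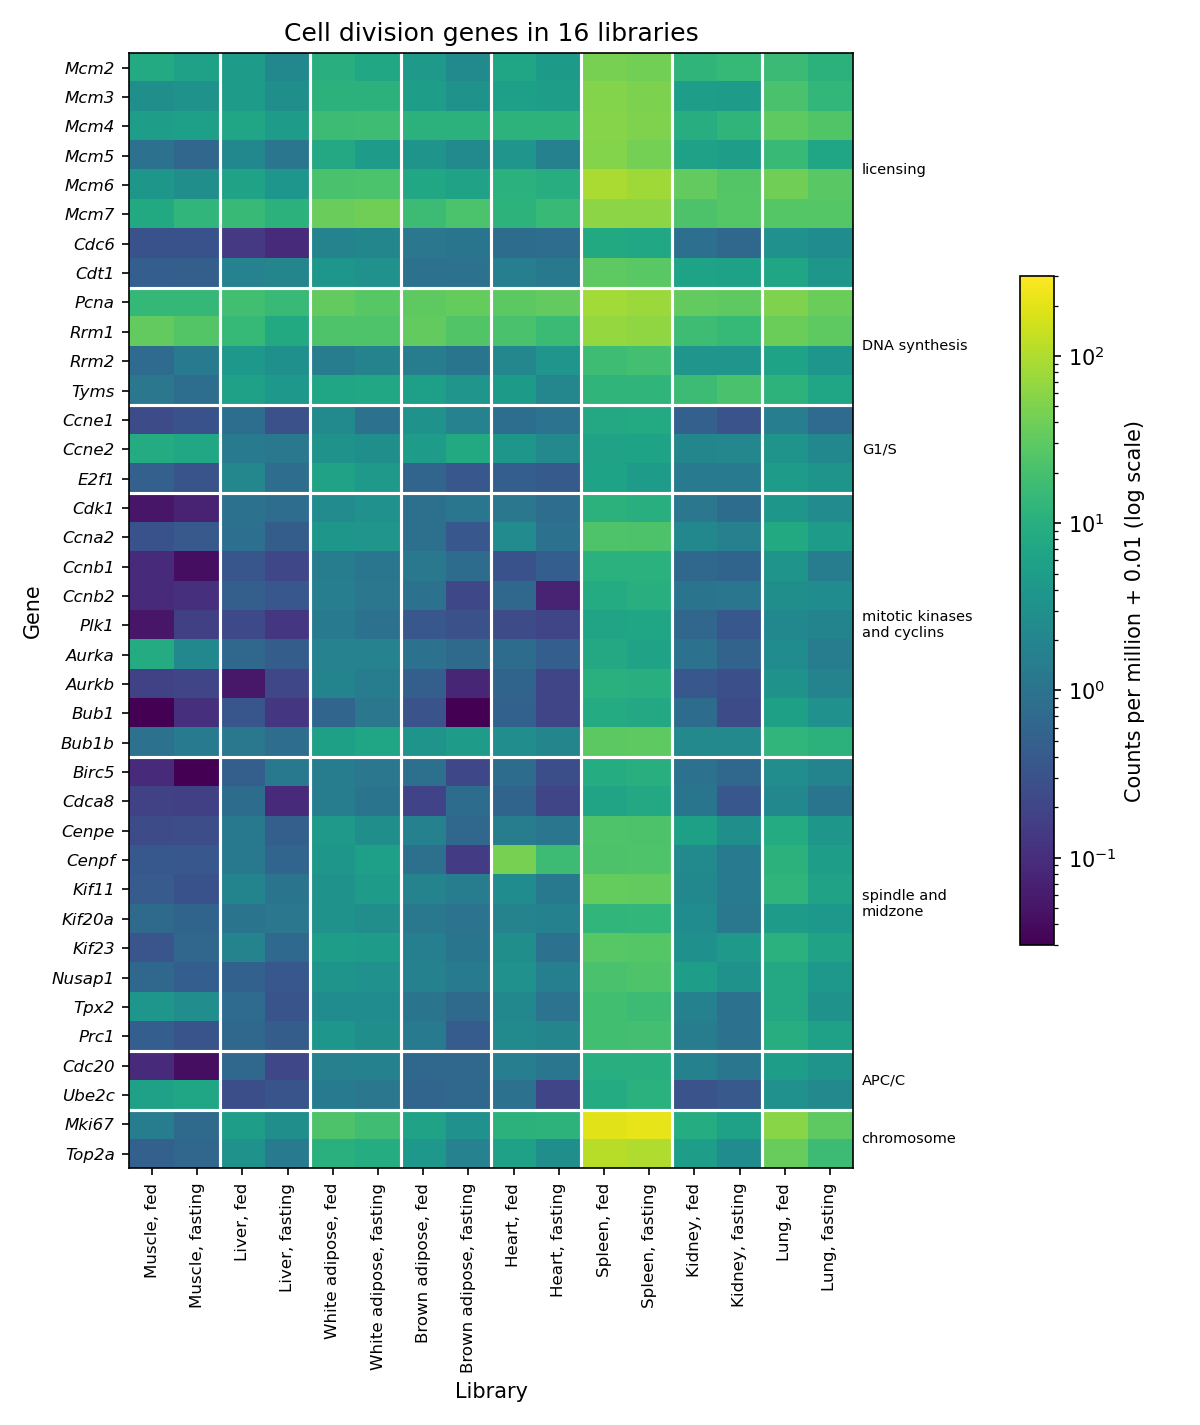
Each row is a cell division gene and each column a library, fed then fasting within a tissue, and the colour gives CPM plus 0.01 on a log scale. The bright pair of columns is spleen, where the set sums to 1252 CPM fed and 1195 CPM fasting, and exceptions stand out in heart (Cenpf) and muscle (Ube2c, Aurka and Ccne2).

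Per kilobase of gene length, which allows genes to be compared, the levels within spleen ran from 1.38 CPM per kb for Cdca8, a passenger complex subunit, to 33.1 for Pcna, with a median of 3.74. After Pcna came Mki67 at 20.4 and the helicase subunits Mcm6 at 18.5, Mcm4 at 14.9, Mcm3 at 13.8 and Mcm7 at 13.7 CPM per kb. The order was not the same elsewhere: Pcna kept 5.76 CPM per kb in fed muscle, where Mki67 was at 0.144. Pcna thus had the narrower range between tissues, and it also serves DNA repair.

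Each tissue was set against the mean of the other 7 in an additive edgeR fit over all 16 libraries, in which the fed and fasting library of a tissue are its pair of observations. In spleen 37 of 38 genes were higher and 0 lower at an adjusted p under 0.05, beside 35.1% of all genes higher and 29.6% lower. The log2 difference was 4.12 for Mki67 (SE 0.14, edgeR adjusted p = 9.09e-10) and 4.12 for Top2a (SE 0.17), and the 1 gene that did not pass was Ccne2, at 0.25 (SE 0.23, edgeR adjusted p = 0.387). In lung 24 were higher and 1 lower, against backgrounds of 30.6% and 23.6%, led by Bub1 at 2.68 (SE 0.43). The lower gene in lung was Ccne2, a call that was lost when scaled by total counts. At the other end, muscle had 6 higher and 27 lower (backgrounds 25.9% and 24.9%), liver 2 and 21 (27.0% and 24.8%) and brown adipose 2 and 20 (21.7% and 17.8%). Kidney had 6 and 13 (27.7% and 19.3%), heart 1 and 10 (22.7% and 19.8%) and white adipose 5 and 3 (24.5% and 18.4%). Scaled by total counts, white adipose had 18 higher and 1 lower and heart had 16 lower. The shares of all genes under that scaling were not counted. In muscle the lowest were Birc5, survivin, at a log2 difference of -4.01 (SE 0.90) and Cdk1 at -4.00 (SE 0.43), both with counts at or under the floor in both muscle libraries, so that these fitted values are no bounds.

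The genes that broke this order were few. Cenpf, a large kinetochore protein, was highest in heart at 45.0 CPM fed and 16.3 CPM fasting, beside 23.2 and 23.9 CPM in spleen and 11.0 and 4.96 CPM in lung. It ran from 0.14 to 5.43 CPM in the 10 libraries of the other 5 tissues. Its log2 difference in heart was 3.85 (SE 0.27, edgeR adjusted p = 5.03e-07), and it was the 1 gene of the set that was higher in heart. The rest of the mitotic genes did not share this level there, since Mki67 was at 11.3 CPM fed and 11.5 CPM fasting in heart and Top2a at 5.87 and 2.95 CPM.

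Ccne2 was highest in muscle, at 8.51 CPM fed and 7.37 CPM fasting beside 6.00 and 6.32 CPM in spleen, and Aurka, the spindle pole kinase, reached 8.60 CPM in fed muscle and 2.17 CPM in fasting muscle beside 7.86 and 6.04 CPM in spleen. Their log2 differences in muscle were 2.37 (SE 0.20) and 2.95 (SE 0.25). Ube2c stood at 5.86 and 6.85 CPM in muscle (log2 difference 3.65, SE 0.26), but its annotation shares 592 bases on the opposite strand with Tnnc2, the fast troponin C, which was at 6261 CPM in fed muscle and 0.132 CPM in fed spleen. The libraries were stranded, while the strand setting of the counting is not given in the sources used here, so the muscle value of Ube2c is uncertain. The same holds, with less abundant partners, for Kif20a, which shares 1271 bases with Cdc23 on the opposite strand, Prc1 (911 bases, Rccd1), Ccne2 (609, Ints8), Ccna2 (510, Exosc9) and Mcm7 (321, Ap4m1), and for Cdca8, Nusap1, Plk1 and Cdc20 over shorter stretches. Tyms, thymidylate synthase, was highest in kidney, at 16.3 CPM fed and 21.1 CPM fasting beside 12.6 and 12.4 CPM in spleen (log2 difference in kidney 1.92, SE 0.20), and Mcm6 was also higher in kidney than in the mean of the other tissues (1.04, SE 0.10). Other tissue differences that passed included E2f1 in white adipose (1.59, SE 0.21), Ccne1 in brown adipose (1.28, SE 0.33) and Rrm2 in liver (0.99, SE 0.25), the last of which was lost with total counts, where 0 genes were higher in liver.

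The second question is how the set moved with fasting in each tissue. The fasting and fed libraries of a tissue were compared with the study's own rule: a log2 ratio, with 0.01 CPM added to both values, above 0.5 in size and a two-sided Fisher's exact test p under 0.01. Since a treatment is a single library here, such a call separates a pair of libraries, not the conditions. Of 304 gene and tissue pairs, 229 had a log2 ratio below 0, 68 were called lower in fasting and 4 were called higher. All genes leaned the same way in most tissues: of those at a mean of 1 CPM or more, from 44.2% in white adipose to 64.1% in lung were lower in fasting, with 63.4% in muscle and in liver. In 7 or 8 tissues the fasting value was the lower for 16 genes of the set, and for Mcm5, E2f1 and Aurka it was in all 8. The tissues were unequal: 24 genes were called lower in lung, 13 in liver, 13 in heart, 7 in brown adipose, 7 in kidney, 2 in muscle, 2 in white adipose and 0 in spleen. The shares of all genes called lower, in the same order, were 6.49%, 9.52%, 5.80%, 7.58%, 3.93%, 9.39%, 5.84% and 1.62%. Where an assumed variation of 0.2 between libraries was allowed for in edgeR's exact test, 10 of the 72 calls of the set remained. They were 5 in lung (Ccnb1, Cenpe, Cenpf, Tpx2 and Top2a), 2 in heart (Cenpf and Kif23), 2 in liver (Cdca8 and Top2a) and 1 in muscle (Aurka). The share of all genes called by that test was not counted, so these 10 have no background beside them. Fewer dividing cells and less of these RNAs per cell cannot be told apart in bulk tissue.

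**Figure D3:**
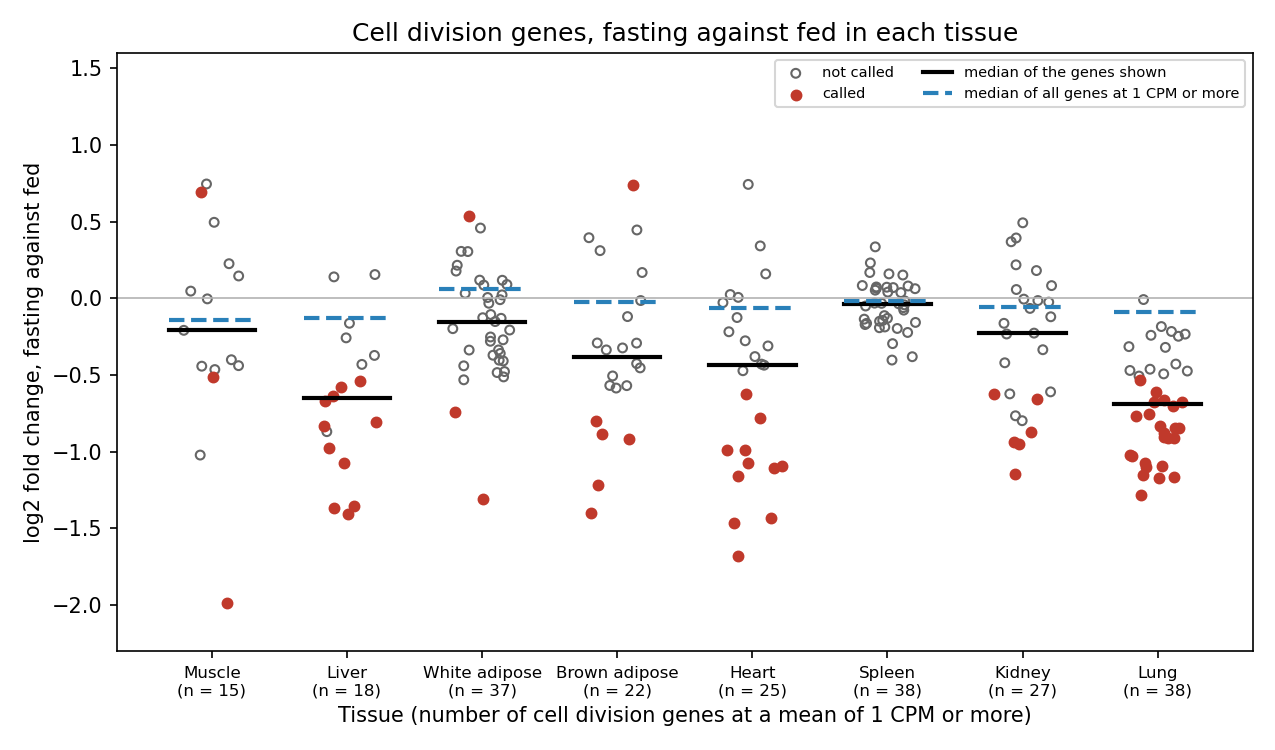
Each point is a cell division gene at a mean of 1 CPM or more, placed by its log2 ratio of fasting to fed in 1 tissue, filled red where called. The black bar is the median of the genes shown and the dashed blue bar that of all genes at 1 CPM or more, from -0.69 against -0.09 in lung to -0.04 against -0.02 in spleen.

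Lung had the broadest shift. All 38 genes were lower in the fasting library, 24 of them by the call, against a background of 6.49% of all genes called lower and 2.68% called higher in lung. The median log2 ratio was -0.69 over the set and -0.09 over all genes at 1 CPM or more. Mki67 went from 57.7 to 30.7 CPM, a ratio of 0.533 (95% interval 0.494 to 0.575), and Top2a from 35.2 to 16.5 CPM, a ratio of 0.469 (0.424 to 0.519). These were among the best counted of the set, at 1733 and 1108 reads for Mki67.

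The largest folds in lung belonged to Ccnb1, cyclin B1, from 3.53 to 1.44 CPM (ratio 0.409, interval 0.288 to 0.575), and to the microtubule factor Tpx2, from 7.68 to 3.41 CPM (0.444, 0.354 to 0.555). Cenpe, the kinetochore motor, went from 8.72 to 3.88 CPM (0.445, 0.360 to 0.549), Cenpf from 11.0 to 4.96 CPM (0.451, 0.374 to 0.542) and Mcm5 from 14.8 to 6.90 CPM (0.466, 0.398 to 0.546). The spread within the helicase was wide, since Mcm7 was at 26.8 and 26.6 CPM (ratio interval 0.905 to 1.09) and Mcm4 at 30.4 and 24.4 CPM. By arm, 16 of 23 mitosis genes and 8 of 15 replication genes were called lower in lung.

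Lymphocyte markers moved in the same pair of lung libraries. The thymocyte list summed to 127 CPM in fed lung and 8.37 CPM in fasting lung, with 7 of 7 genes called lower, among them Rag1, of receptor gene rearrangement, from 60.9 to 0.776 CPM, and Themis from 20.7 to 4.38 CPM. The fed lung sum lay above those of spleen, at 112 and 115 CPM, and the list is of developing T cells, which divide in the thymus. The T cell list went from 91.3 to 27.7 CPM (7 of 7 called lower), led by Lck (19.0 to 5.52 CPM) and Cd8a (18.3 to 3.44 CPM). The B cell list went from 482 to 244 CPM (9 of 9), led by Ighm (186 to 98.6 CPM). Mature neutrophil markers went from 130 to 74.6 CPM (5 of 6 called lower), whereas the neutrophil precursor list went from 46.0 to 147 CPM (3 of 8 called higher), of which Ltf made 37.2 and 132 CPM. Macrophage (391 and 380 CPM), endothelial (3081 and 2808 CPM) and lung epithelial (25743 and 26928 CPM) sums moved little, and the cardiomyocyte list went from 968 to 483 CPM. The adipocyte list went from 247 to 462 CPM (4 of 5 called higher), led by Lpl (151 to 307 CPM) and Cfd (48.7 to 72.9 CPM). Whether the fed lung library held thymus tissue, in which cells divide, was not tested, nor was the part of any of these cell types in the lung level and the lung differences of the cell division genes.

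Heart had 13 genes called lower and 0 called higher, against 5.80% and 4.33% of all genes, with a median log2 ratio of -0.44 beside -0.06. Cenpf had the most reads of the called genes: 775 reads in fed and 249 in fasting heart, a ratio of 0.363 (interval 0.313 to 0.419). The lowest ratios rest on few reads. Ccnb2, cyclin B2, had 11 reads fed and 1 fasting (ratio 0.103, interval 0.00238 to 0.706), and Ube2c had 16 and 3 (0.212, 0.0395 to 0.739). Kif23, a kinesin of the midbody, had 51 and 14 (0.310, 0.158 to 0.568), and Ccna2, cyclin A2, had 43 and 14 (0.367, 0.186 to 0.685). The other 8 called genes, among them Tyms, Mcm5 and Top2a, had ratios from 0.445 to 0.649. Mki67 did not move with them, at 11.3 CPM fed and 11.5 CPM fasting (ratio interval 0.825 to 1.26). In heart, the hepatocyte list went from 28.7 to 87.0 CPM with 4 of 5 genes called higher, while the cardiomyocyte list was at 40460 and 40573 CPM. Its atrial genes differed: Myl7 went from 14.5 to 0.918 CPM, whereas Nppa was at 113 and 119 CPM and not called. The B cell list went from 36.7 to 23.2 CPM in heart with 3 of 9 genes called lower, and whether any of these bears on these values was not tested.

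Liver had 13 genes called lower and 1 called higher, against backgrounds of 9.52% and 4.46%, with a median log2 ratio of -0.65 beside -0.13 for all genes. Top2a went from 3.39 to 1.32 CPM (ratio 0.390, interval 0.252 to 0.594), E2f1 from 2.08 to 0.801 CPM (0.384, 0.216 to 0.660), Kif23 from 1.82 to 0.681 CPM (0.373, 0.199 to 0.670) and Cenpe from 1.22 to 0.481 CPM (0.395, 0.183 to 0.803). The lowest ratio of a called gene was that of Cdca8, with 18 reads fed and 2 fasting (0.103, 0.0115 to 0.428). Of the 6 helicase subunits 5 were called lower in liver, and the other, Mcm7, was at 14.8 and 11.0 CPM. Replication genes made up most of the calls there, 8 of 15, with Rrm1, the large subunit of ribonucleotide reductase, from 14.2 to 8.09 CPM. Birc5 was called higher, on 11 and 31 reads (ratio 2.60, interval 1.27 to 5.73). Scaling by TMM or DESeq2 factors raises every fasting liver value slightly, and 8 rather than 13 genes are then called lower.

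Brown adipose had 7 genes called lower and 1 higher, against 7.58% and 5.39%. Top2a went from 4.09 to 1.75 CPM (ratio 0.429, interval 0.260 to 0.687), Mki67 from 5.96 to 3.16 CPM (0.530, 0.364 to 0.761) and Cenpe from 1.69 to 0.632 CPM (0.375, 0.156 to 0.817). Cenpf (15 reads fed, 2 fasting) and Ccnb2 (16 and 3) had lower ratios on few reads, 0.155 (0.0172 to 0.668) and 0.219 (0.0408 to 0.764). The cyclins E went opposite ways: Ccne1 was called lower, from 3.25 to 1.75 CPM, and Ccne2 higher, from 4.76 to 7.93 CPM (ratio 1.67, interval 1.24 to 2.25). Skeletal muscle markers went from 2220 to 1039 CPM in the same pair of libraries, with 5 of 5 genes called lower. Blood cell lists were also lower there, B cell from 22.2 to 12.5 CPM (2 of 9 called lower), mature neutrophil from 5.66 to 1.40 CPM (2 of 6) and erythroid from 1253 to 763 CPM (1 of 14). Their part in these values was not tested.

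Kidney had 7 genes called lower and 0 higher, against 3.93% and 2.77%, and all 7 belong to the mitosis arm. Cenpe went from 5.57 to 2.91 CPM (ratio 0.522, interval 0.387 to 0.701), Top2a from 5.17 to 2.68 CPM (0.518, 0.379 to 0.704), Kif20a, a kinesin of cytokinesis, from 2.67 to 1.20 CPM (0.450, 0.282 to 0.705), Cenpf from 2.49 to 1.36 CPM (0.544, 0.346 to 0.845) and Cdca8 from 1.07 to 0.349 CPM on 24 and 9 reads (0.327, 0.134 to 0.728). Mki67 and Nusap1, a spindle microtubule protein, were the other 2. The 15 replication genes summed to 168 CPM fed and 169 CPM fasting in kidney. In the same libraries the brown adipocyte list went from 1.78 to 8.57 CPM (3 of 4 called higher). The adipocyte list went from 766 to 519 CPM (1 of 5 called higher and 2 lower). The hepatocyte list went from 2642 to 3105 CPM (1 of 5 called higher and 2 lower), while its member Alb went from 32.2 to 7.57 CPM. The part of these lists in the kidney values was not tested.

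Muscle and white adipose held few calls. In muscle Aurka went from 8.60 to 2.17 CPM on 207 and 67 reads (ratio 0.252, interval 0.188 to 0.333), Mcm2 from 8.27 to 5.79 CPM (0.700, 0.569 to 0.861) and Mcm7 rose from 7.97 to 12.9 CPM (1.62, 1.36 to 1.94). The background in muscle was 9.39% lower and 4.42% higher, so 2 and 1 of 38 are no more than the share among all genes. The adipocyte list went from 541 to 498 CPM in muscle. Of its 5 genes Adipoq (16.1 to 6.79 CPM), Plin1 (11.5 to 3.33 CPM) and Cfd (56.4 to 28.5 CPM) were called lower. Fabp4 (110 and 132 CPM) and Lpl (348 and 327 CPM) were not called. The erythroid list went from 371 to 152 CPM, of which the transferrin receptor Tfrc made 232 and 43.8 CPM. Their part in the muscle values was not tested. The call of Mcm2 was lost with TMM or DESeq2 factors or with 1 CPM added. In white adipose Ccne1 went from 2.36 to 0.948 CPM (0.401, 0.242 to 0.651), Mcm5 from 7.73 to 4.63 CPM (0.599, 0.474 to 0.756) and Kif11, the spindle motor, from 3.39 to 4.92 CPM (1.45, 1.09 to 1.94), against backgrounds of 5.84% lower and 13.2% higher. The Kif11 call was lost under the same 3 settings, and with TMM or DESeq2 factors 4 genes rather than 2 were called lower. In white adipose the B cell list went from 351 to 86.4 CPM, almost wholly Ighm (338 to 76.3 CPM), and the epididymis list from 10.7 to 0.948 CPM (4 of 5 called lower). Their part in the white adipose values was not tested.

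Spleen, with the largest counts and so the narrowest intervals, had 0 genes called in either direction, against 1.62% lower and 2.31% higher. Its log2 ratios ran from -0.40 for E2f1 to 0.34 for Ube2c. Mki67 was at 200 CPM fed and 211 CPM fasting, a ratio interval of 1.02 to 1.10, and Top2a was at 113 and 100 CPM (0.842 to 0.938). Among the helicase subunits Mcm5 was at 54.4 and 44.4 CPM (0.753 to 0.883) and Mcm6 at 93.2 and 79.9 CPM (0.807 to 0.910). At these backgrounds a count of 0 among 38 genes is close to the share among all genes. Erythroid markers went from 3988 to 9588 CPM in spleen, 13 of 14 called higher, led by Hbb-bs (2075 to 4947 CPM) and Hba-a1 (709 to 1680 CPM). The B cell (10208 and 10020 CPM), T cell (439 and 431 CPM) and thymocyte (112 and 115 CPM) sums barely moved, and mature neutrophil markers went from 177 to 115 CPM. The part of the red cell precursors in the spleen values was not tested.

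**Figure D4:**
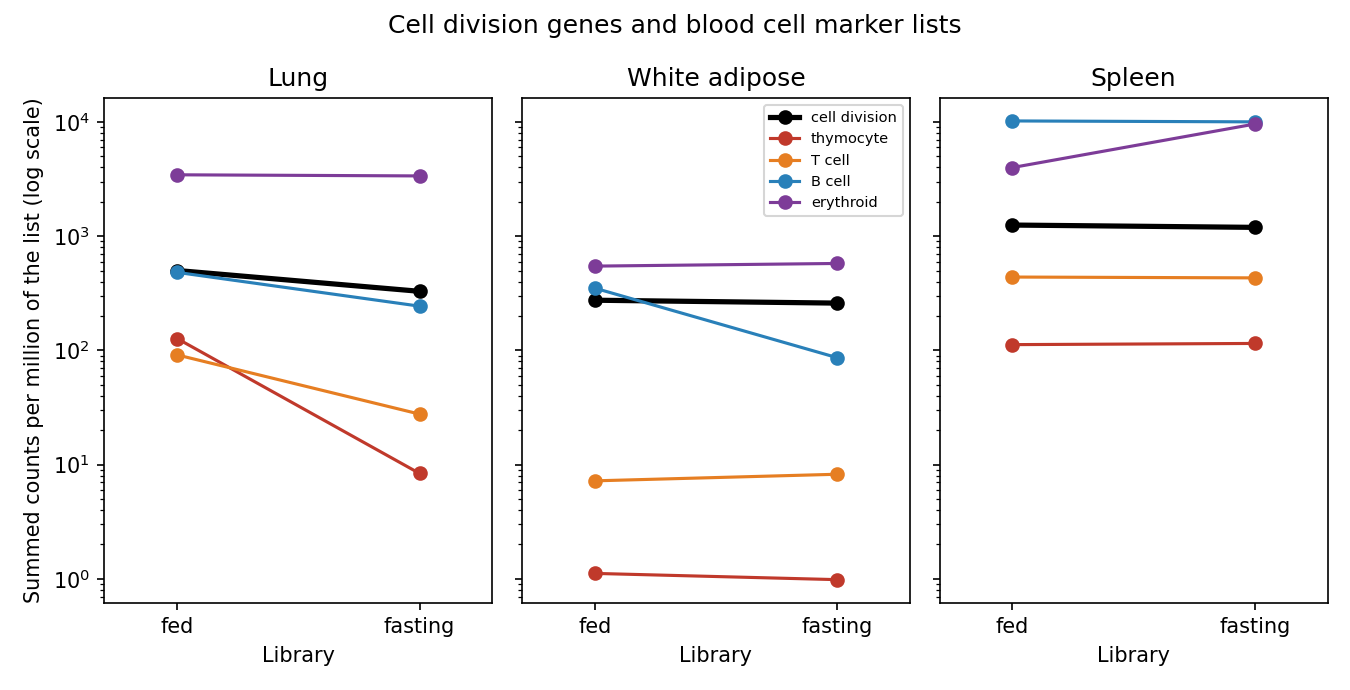
The lines join the fed and fasting library of lung, white adipose and spleen, with the summed CPM of the cell division genes in black and of 4 blood cell marker lists in colour, on a log axis. In lung the cell division sum goes from 501 to 329 CPM while the thymocyte sum goes from 127 to 8.37 CPM, and in spleen the cell division line is nearly flat while the erythroid line rises from 3988 to 9588 CPM.

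Set side by side, the arms of the set had different sums. The fasting to fed ratio of the summed CPM was lower for the 23 mitosis genes than for the 15 replication genes in 7 of 8 tissues, and in 5 of them this order held whichever single gene was left out, a check added after the data were seen. It was 0.560 and 0.736 in lung, 0.587 and 0.690 in liver, 0.665 and 1.002 in kidney, and 0.670 and 0.951 in brown adipose, where the median log2 ratio of the genes at 1 CPM or more ran the other way, at -0.34 for mitosis and -0.42 for replication. In heart it was 0.513 and 0.935, of which Cenpf was a large share: without it the 22 other mitosis genes gave 0.657. In muscle the ratios were 0.731 and 0.915 and in white adipose 0.917 and 0.956, and in both the order rests on 1 gene: without Aurka the mitosis ratio in muscle was 0.977, and without Mki67 that in white adipose was 0.965, each above the replication ratio. Spleen ran the other way, at 0.9998 for mitosis and 0.907 for replication. These sums have no replicate error and were not tested.

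The roles within each arm can be read the same way. The pair Mki67 and Top2a had summed ratios of 0.494 in liver, 0.489 in brown adipose, 0.509 in lung and 0.591 in kidney, but 0.679 in muscle, 0.807 in white adipose, 0.841 in heart and 0.997 in spleen. The 10 spindle and kinetochore genes were at 0.417 in heart, 0.536 in lung, 0.618 in liver, 0.629 in brown adipose and 0.659 in kidney, and at 0.805 in muscle, 0.974 in white adipose and 1.01 in spleen. The 8 licensing genes stayed between 0.943 and 1.06 in muscle, white adipose, brown adipose, heart and kidney, and were at 0.675 in liver, 0.738 in lung and 0.893 in spleen. The nucleotide and clamp genes were at 0.721 in liver and 0.741 in lung and between 0.839 and 1.01 in the other 6 tissues.

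The third question is whether fasting moved these genes across the body. In an additive edgeR fit with the tissue as a block, in which the 8 tissues stand in for replicates although they come from the same animals, 244 of 23580 genes were higher and 198 lower at an adjusted p under 0.05, or 1.03% and 0.840%. Of the 38 cell division genes, 1 was lower and 0 were higher. It was Mcm5, on chromosome 8 from 75109569 to 75128439, with a log2 change of -0.64 (SE 0.13, edgeR adjusted p = 0.0366). In fed and fasting libraries Mcm5 was at 0.914 and 0.614 CPM in muscle, 2.21 and 1.12 in liver, 7.73 and 4.63 in white adipose, 3.49 and 2.46 in brown adipose, 3.60 and 1.70 in heart, 54.4 and 44.4 in spleen, 5.93 and 5.04 in kidney and 14.8 and 6.90 in lung. It was thus the lower of the pair in every tissue, though the fed and fasting ranges overlap because tissues differ more than treatments do.

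The next genes by p missed the threshold. Top2a had a log2 change of -0.70 (SE 0.16, edgeR adjusted p = 0.0545) and was lower in 7 tissues, with muscle the exception at 0.498 and 0.614 CPM. Rrm1 had -0.30 (SE 0.08, adjusted p = 0.0702), Cenpe -0.68 (SE 0.18, adjusted p = 0.0793) and Mcm6 -0.27 (SE 0.07, adjusted p = 0.0793). In all, 35 of the 38 changes were below 0, with a median of -0.40 beside -0.011 for all genes tested, and at an unadjusted p under 0.05 there were 16 lower and 0 higher, beside 10.3% of all genes lower and 8.37% higher. DESeq2 on the same counts called 8 lower and 0 higher, adding Top2a, Rrm1, Mcm6, Mki67, Cenpe, Tpx2 and Mcm2 to Mcm5, where it called 6.52% of its 15375 genes lower and 5.60% higher. The count is fragile: it was 0 without muscle, liver, brown adipose, heart or lung, 1 without white adipose (Top2a in place of Mcm5) or kidney, and 2 without spleen, and Mcm5 kept an edgeR adjusted p under 0.05 in 2 of these 8 fits (range 0.0406 to 0.0898). How many of all genes passed in these 8 fits was not counted. Mcm7 was the helicase subunit apart, at 0.21 (SE 0.11, edgeR adjusted p = 0.334), above 0 in all 13 settings tried, and its annotation overlaps those of Ap4m1 and Cops6.

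**Figure D5:**
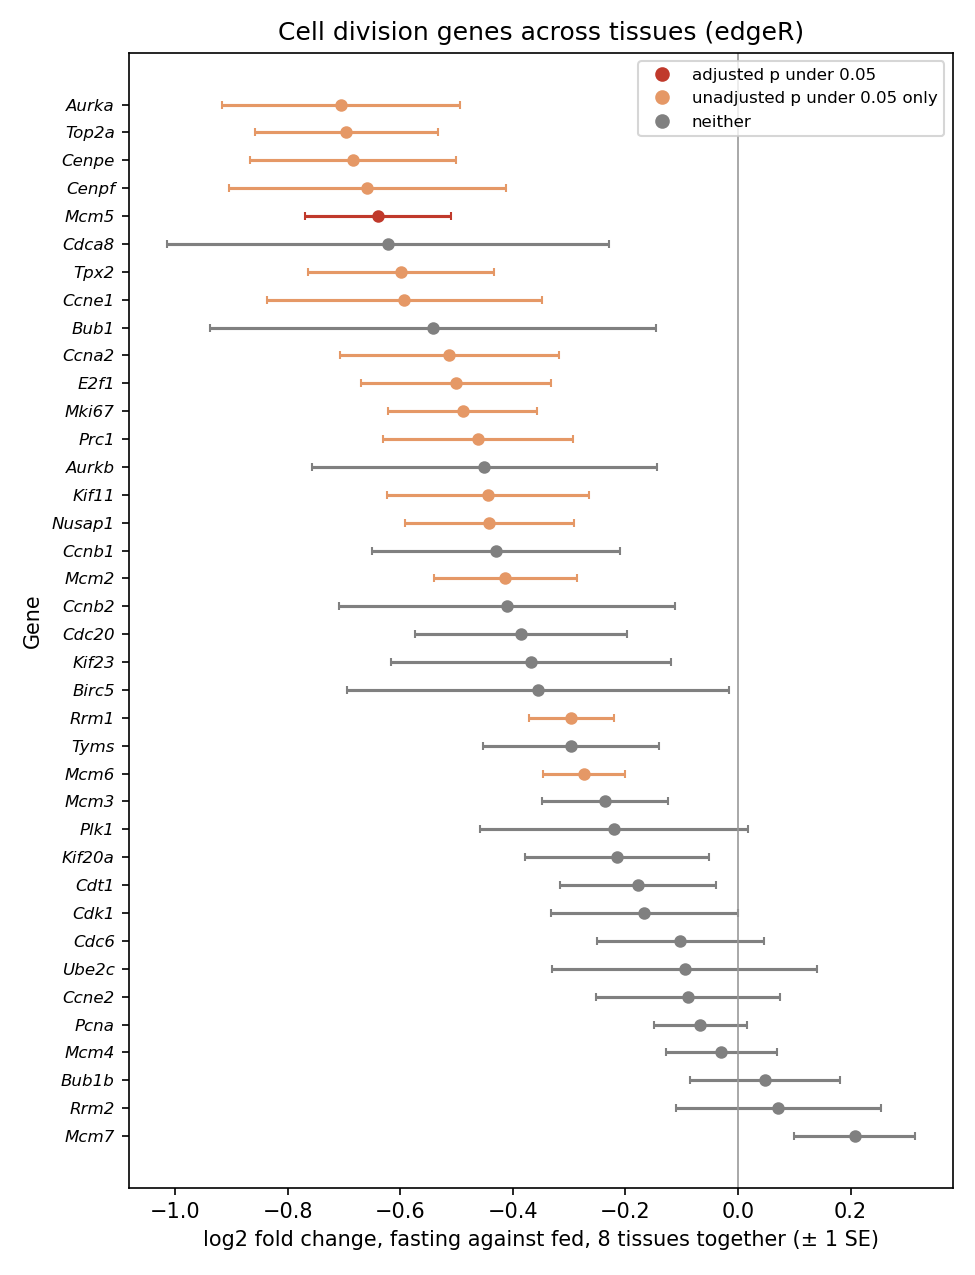
The points give each gene's log2 change with fasting over the 8 tissues together in the edgeR fit, with bars of 1 SE. Of the 38 points 35 lie left of 0, and Mcm5 at -0.64 is the 1 that passes an adjusted p under 0.05.

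Whether any tissue departs from the rest was tested by adding 1 term for fasting in that tissue. No cell division gene passed in any of the 8 tissues by edgeR or by DESeq2. Over all 304 tests 12 had an unadjusted p under 0.05, 6 of them lower, and the lowest adjusted p was 0.294. The backgrounds were 4.39% of all genes in white adipose, 0.208% in liver, 0.0297% in spleen, 0.0127% in muscle, 0.00424% in brown adipose and 0% in heart, kidney and lung, so outside white adipose this test called few genes of any kind. The lowest unadjusted p was that of Aurka in muscle, with a term of -1.42 (SE 0.39, edgeR adjusted p = 0.578). Spleen had 0 genes at an unadjusted p under 0.05. A call in lung and none in spleen is therefore not shown to be a difference between them.

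Genes of the same pathways outside the set were counted from lists of 38 further mitosis genes, 30 further replication genes, 24 cycle regulators, 8 genes of G1 entry and 16 brakes of the cycle. Further mitosis genes were called lower for 22 in lung, 11 in liver and at most 2 in any other tissue, and called higher for 5 in white adipose, a share no larger than the background of 13.2% there. Further replication genes were called lower for 14 in lung, 8 in liver, 8 in brown adipose, 6 in white adipose, 4 in heart and at most 2 elsewhere. The shares of all genes called lower, for comparison with both lists, were those given above: 6.49% in lung, 9.52% in liver, 7.58% in brown adipose, 5.84% in white adipose and 5.80% in heart. The most abundant of them moved little: Hjurp, the histone CENP-A chaperone, was at 123 and 117 CPM in lung, and Smc4, a condensin subunit, at 91.9 and 81.7 CPM. Pold1, a polymerase delta subunit, was at 24.1 and 19.1 CPM in lung. Across tissues none of the 38 further mitosis genes and none of the 30 replication genes passed by edgeR, with 10 and 9 lower and 1 and 0 higher at an unadjusted p under 0.05, beside the same shares of all genes. Their median log2 changes were -0.31 and -0.25.

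The genes that did pass across tissues lay among the regulators. Cdkn1a, the cyclin kinase inhibitor p21, had a log2 change of 1.35 (SE 0.22, edgeR adjusted p = 0.0189). It was called higher in 7 tissues, from 17.2 to 71.1 CPM in lung, 34.8 to 133 in brown adipose, 8.60 to 30.1 in heart, 4.86 to 13.6 in muscle, 3.82 to 8.13 in liver, 2.76 to 6.09 in kidney and 17.3 to 27.6 in white adipose. Spleen was the exception, at 3.71 and 3.56 CPM. Gadd45g, a stress-induced growth arrest gene, had 1.22 (SE 0.21, adjusted p = 0.0223) and was called higher in 6 tissues, with liver (26.5 and 34.7 CPM) and spleen (4.11 and 4.38 CPM) not called. Wee1, the kinase that holds Cdk1 inactive, had 0.74 (SE 0.13, adjusted p = 0.0223), for example from 10.5 to 21.8 CPM in kidney. Cyclin D2 (Ccnd2), which carries growth signals to the cycle, had -0.51 (SE 0.09, adjusted p = 0.0223) and went from 280 to 183 CPM in white adipose and from 89.0 to 54.5 CPM in heart.

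Of the 24 cycle regulators 1 passed as higher, of the 8 G1 entry genes 1 as lower and of the 16 brakes 2 as higher, where edgeR called 1.03% of all genes higher and 0.840% lower. At an unadjusted p under 0.05 the brakes had 6 higher and 1 lower, the cycle regulators 4 and 5 and the G1 entry genes 2 and 1, beside 8.37% of all genes higher and 10.3% lower. Of the brakes 5 had a log2 change below 0, and their median was 0.22, against -0.045 for the cycle regulators and 0.013 for the G1 entry genes. Among the most abundant, Rbl2, the pocket protein p130 of the DREAM complex, had 0.46 (SE 0.14, edgeR adjusted p = 0.122) and was called higher in muscle (65.3 to 149 CPM) and heart (70.2 to 145 CPM), and its partner Rbbp4 was called lower in liver (128 to 75.4 CPM). Cyclin D3 (Ccnd3) was called higher in spleen (214 to 329 CPM) and liver (24.2 to 47.8 CPM). Of the brakes, Ccng1 was called lower in muscle and heart (1514 to 1022 CPM), and Btg1 was called higher in muscle, white adipose and brown adipose (92.9 to 171 CPM).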

How the data were processed

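Per the file headers and the study's methods, the deposited counts are whole reads per gene that the authors made with fastp 0.23.2, FastQC 0.11.8, HISAT2 2.2.1.0 on GRCm38 and featureCounts (Subread 2.0) on GENCODE M24. The strand setting of the counting is not given in the sources used here. Gene lengths are those of the deposited table. Libraries held 14245178 to 36069968 counts. Each tissue and treatment is 1 library of 3 pooled mice, so no p-value measures the spread between animals: Fisher's test holds counting error alone, and the fits the spread between tissues.

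CPM used library totals. Within a tissue, fasting and fed were compared by a two-sided Fisher's exact test (scipy 1.17.1), with 0.01 CPM added to both values, and called at a log2 ratio above 0.5 and p under 0.01. Ratio intervals are exact 95% intervals. Across tissues, edgeR 4.0.16 (R 4.3.3) fitted tissue and fasting by quasi-likelihood with TMM factors, its default filter on the design (23580 genes) and Benjamini-Hochberg adjustment, with 7 residual degrees of freedom, or 6 for the response of 1 tissue. SE is the log2 change divided by the root of F. The procedures were tested on simulated data. The genes, lists and tests were chosen with earlier results of these data known. Any of the 38 could be named. Full values are given at least for up to 5 called genes each way in a tissue and the 5 lowest p across tissues, and of a list for the 2 most abundant and the passing genes, of which 1 gene is not reported here. Other settings were TMM and DESeq2 1.42.0 factors, 1 CPM added, a minimum of 1 CPM, an assumed variation of 0.2 in edgeR's exact test, DESeq2, no filter, total counts and leaving out each tissue.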

Additional observations from a re-analysis of the deposited data

How the results depend on the processing

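Fisher's exact test counts sampling error alone. With an assumed variation of 0.2 between libraries, edgeR's exact test kept 10 of the 72 called pairs (the across-tissue fit estimated 0.219): Aurka in muscle, Cdca8 and Top2a in liver, Cenpf and Kif23 in heart, and Ccnb1, Cenpe, Cenpf, Tpx2 and Top2a in lung. Genes called lower then numbered 1 in muscle, 2 in liver, 0 in white adipose, 0 in brown adipose, 2 in heart, 0 in kidney and 5 in lung, and called higher 0 in muscle, liver, white adipose and brown adipose. TMM and DESeq2 factors each gave 1 lower in muscle, 8 lower in liver, 4 lower and 0 higher in white adipose and 1 higher in heart. Adding 1 CPM gave 1 lower in muscle and 0 higher in white adipose, and a minimum of 1 CPM gave 0 higher in liver. The cause was not tested. Shares of all genes called in these settings are not given here, so these counts have no background beside them. No called gene changed direction in these settings.

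The median log2 ratio of the set became -0.52 (TMM), -0.53 (DESeq2) and -0.52 (1 CPM added) in liver, -0.27 (TMM and DESeq2) in white adipose, -0.27 in brown adipose, -0.33 in heart and -0.57 in lung with 1 CPM added, and -0.020 (from -0.21) in muscle and -0.37 in kidney over every gene with a count. Across tissues, 2 genes of the set were lower with no filter and 2 with a filter on the treatments (chosen after seeing the data). There were 8 by DESeq2 and 0 to 2 with a tissue left out. Of all genes, the treatment filter gave 359 of 17296 lower and 400 higher, and DESeq2 gave 6.52% lower and 5.60% higher. The shares of all genes were not counted with no filter or with a tissue left out. For levels, total counts gave 0 higher in liver, 18 higher and 1 lower in white adipose, 16 lower in heart and 0 lower in lung, and DESeq2 gave 1 higher in liver and 3 higher in white adipose. The shares of all genes in those level fits were not counted. The tissue block of the fit across tissues already pairs the fed and fasting library of each tissue, and the labels give no replicate numbers for another pairing. Few reads limit the mitosis arm most in muscle, where its median gene had 8 reads fed and 10 fasting, beside 17 and 11 in liver and 16 and 10 in brown adipose.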
